A study of Mus musculus with 24 samples.

Results

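The metallothionein and haem oxygenase stress set comprised 10 genes, Mt1, Mt2, Hmox1, Nfe2l2, Nqo1, Gclc, Gclm, Txnrd1, Srxn1 and Slc39a14, of 19937 gene names tested in mouse skeletal muscle. They were chosen by name, and 14 of 56605 probes carried those names. Earlier results on these same samples had already shown Mt1 and Hmox1 among the genes lower after high fat feeding, so the comparison of the high fat and low fat groups chose the set and is given here as a description: the number of members past the threshold is printed there and supports nothing. All 10 genes were measured: the probe that stood for each gene was well above background on 24 of 24 arrays, with no saturated spot.

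Total RNA from skeletal muscle of 24 mice was labelled with 1 dye and read on Agilent arrays, 1 sample per array. Of these, 8 mice had a control low fat diet (STD_Cont), 8 had a high fat diet and belonged to the control lineage (HFD_Cont), and 8 had a high fat diet and belonged to an omega-3 lineage (HFD_O3). The labels leave out what defines that lineage, the muscle sampled, the duration of feeding, and the strain, age and sex of the mice. No group on the low fat diet with the omega-3 lineage was analysed here, so HFD_O3 differs from STD_Cont in diet and lineage together.

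Between 49.9% and 58.9% of probes were well above background on an array, and the 75th percentile of the signal lay between 162 and 293. The arrays lay on 3 slides, with 2 or 3 arrays of each group on a slide. Groups were not balanced over array rows. On slide 2, HFD_Cont arrays 4 and 5 were in row 1, and STD_Cont arrays 3, 4 and 5 in row 2. Slide 2 differences between these 2 groups therefore cannot be told apart from array row. On slide 1, STD_Cont arrays 1 and 2 were both in row 1. Muscle fibre markers were measured in full (10 of 10), with a summed signal of 8570 to 10200 times the array's 75th percentile in STD_Cont, 8540 to 11300 in HFD_Cont and 8040 to 11400 in HFD_O3. In bulk tissue, fewer cells of a type and less RNA per cell cannot be told apart.

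Metallothioneins are small cysteine-rich proteins that bind zinc, copper and cadmium. Their genes are switched on by free zinc through the metal-responsive transcription factor MTF1, which binds metal response elements, and also by glucocorticoids and inflammatory signals. Hmox1 encodes haem oxygenase 1, which breaks haem into biliverdin, iron and carbon monoxide. It is held down by the repressor BACH1 and raised by NRF2, the product of Nfe2l2, which binds antioxidant response elements and also drives the genes of glutathione and thioredoxin metabolism. Nqo1, Gclc, Gclm, Txnrd1 and Srxn1 are widely used NRF2 target genes, and Slc39a14 encodes ZIP14, a zinc and iron importer induced in inflammation.

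Mt1 and Mt2 are neighbours on mouse chromosome 8 and were the genes with the widest differences in the set, so their start regions are shown. Both windows run from 250 bases before to 50 bases after an annotated start, on the + strand of GRCm38.p6, and come from RefSeq. The Mt1 window is chr8:94178839-94179138 and the Mt2 window is chr8:94172368-94172667. RefSeq begins the Mt1 gene at 94178883 and the Mt2 gene at 94172618. Most of the Mt1 window therefore lies inside the annotated gene, unlike the Mt2 window. Capitals mark matches to the metal response element core, searched as TGCACNC and TGCGCNC on both strands, and to the antioxidant response element core, searched as TGACNNNGC on both strands.
Mt1: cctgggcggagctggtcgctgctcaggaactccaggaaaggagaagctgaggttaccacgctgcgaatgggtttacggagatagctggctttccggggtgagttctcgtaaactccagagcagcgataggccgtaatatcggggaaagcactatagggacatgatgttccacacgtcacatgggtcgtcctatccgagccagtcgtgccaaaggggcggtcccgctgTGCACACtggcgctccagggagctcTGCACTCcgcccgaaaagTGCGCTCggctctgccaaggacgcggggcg
Mt2: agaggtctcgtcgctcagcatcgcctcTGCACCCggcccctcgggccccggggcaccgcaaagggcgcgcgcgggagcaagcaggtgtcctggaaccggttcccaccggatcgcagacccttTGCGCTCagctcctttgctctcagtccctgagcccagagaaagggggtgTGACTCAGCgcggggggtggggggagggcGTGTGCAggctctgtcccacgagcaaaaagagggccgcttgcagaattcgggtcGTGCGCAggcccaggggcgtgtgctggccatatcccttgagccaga

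The Mt1 window held 3 metal-core matches, at −23 to −17, 3 to 9 and 21 to 27 from the start. The Mt2 window held 4, which began at −223, −128, −50 and 5, and 1 antioxidant-core match, TGACTCAGC, at −79 to −71. Among 32851 windows of the same length, 12.6% held TGCACNC, 15.4% held TGCGCNC and 12.4% held TGACNNNGC, whereas 1.97% held at least 3 metal-core matches and 0.517% at least 4. A match is a run of letters and not a measured binding site. The counts and positions hold for these windows only, and sequence outside them was not searched. RefSeq windows were found for 7 of the 10 genes, and Hmox1, Gclc and Slc39a14 were not among them. Gclm had 3 metal-core matches and 1 antioxidant-core match, Srxn1 had 1 of each, Nfe2l2 had 1 antioxidant-core match, Txnrd1 had 1 in 1 of its 3 start windows, and Nqo1 had neither within its window. The 60-base probes for Mt1 and Mt2 shared no run longer than 7 bases, and at most 24 bases matched at any offset without gaps.

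**Figure D1:**
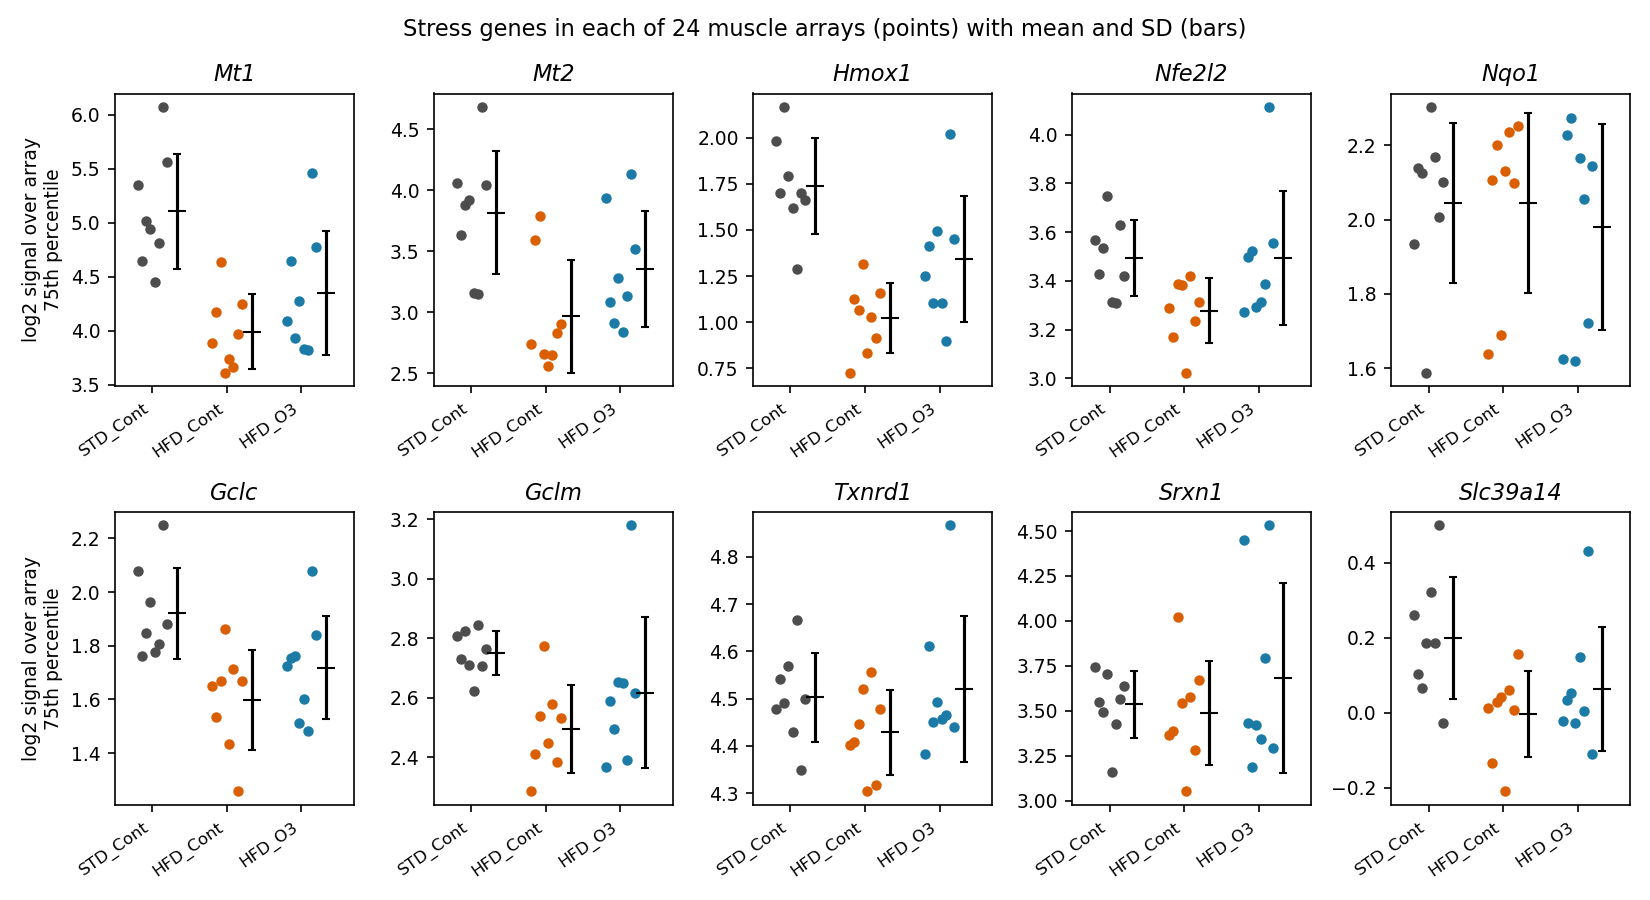
Level of each of the 10 genes in 24 arrays (log2 of the signal over the array's 75th percentile, y axis, scaled per gene) by group (x axis). Points are arrays, and bars give the mean and SD of 8 arrays; the Mt1 and Hmox1 points of HFD_Cont lie mostly below those of STD_Cont, and 1 HFD_O3 array, number 7, stands high in most panels.

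Levels below are log2 of the processed signal over each array's 75th percentile, and levels are compared between groups and not between genes. Differences come from 1 limma fit over the 3 groups and are given with their SE. A gene is said to pass when its Benjamini-Hochberg adjusted p over all 19937 names is under 0.05.

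Metallothionein messages were lower in HFD_Cont than in STD_Cont. Mt1, the more widely studied of the inducible metallothioneins, ranged in STD_Cont from 4.45 to 6.07 with a median of 4.98, in HFD_Cont from 3.61 to 4.64 with a median of 3.93, and in HFD_O3 from 3.82 to 5.46 with a median of 4.18. In HFD_Cont 7 of the 8 arrays lay below all STD_Cont arrays, and HFD_Cont array 3 was the one inside their range. HFD_O3 overlapped both other groups. The mean fell from 5.11 ± 0.53 (SD, n = 8) in STD_Cont to 3.99 ± 0.35 (SD, n = 8) in HFD_Cont, a difference of −1.12 ± 0.24 (SE) or 0.462 times the low fat level. Within the 3 slides the difference was −0.76, −1.13 and −1.52.

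A second Mt1 probe, well above background on 21 of 24 arrays, gave −0.52 ± 0.43 (SE) for the same comparison, with the direction of the main probe and a wider error. Averaging both probes gave −0.82 ± 0.29 (SE) and ended the Mt1 call. The main probe lies at chr8:96704165-96704224 and the second at chr8:96703844-96703903, both on the + strand of mm9, the build of the files' probe positions. The files pair the second probe with a predicted transcript model of Mt1.

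Mt2, which encodes the companion isoform, ranged from 3.15 to 4.68 with a median of 3.90 in STD_Cont, from 2.56 to 3.79 with a median of 2.79 in HFD_Cont, and from 2.84 to 4.13 with a median of 3.21 in HFD_O3. In HFD_Cont 6 arrays lay below all STD_Cont arrays, and the other two reached well into the low fat range. HFD_Cont array 3 was the highest of its group in both metallothioneins. The mean was 3.82 ± 0.51 (SD, n = 8) in STD_Cont and 2.97 ± 0.46 (SD, n = 8) in HFD_Cont, a difference of −0.85 ± 0.23 (SE) or 0.555 times. Slides gave −0.47, −1.04 and −1.16.

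Hmox1 was lower as well. Its level ranged from 1.29 to 2.17 with a median of 1.70 in STD_Cont, from 0.72 to 1.31 with a median of 1.05 in HFD_Cont, and from 0.90 to 2.02 with a median of 1.33 in HFD_O3. All HFD_Cont arrays but array 4 lay below all STD_Cont arrays, and all STD_Cont arrays but array 6 lay above all HFD_Cont arrays. The mean went from 1.74 ± 0.26 to 1.02 ± 0.19 (SD, n = 8 each), a difference of −0.72 ± 0.13 (SE) or 0.607 times. Within slides it was −0.87, −0.79 and −0.52. A second Hmox1 probe rose well above background in 1 array of the 24 and was left out.

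Nfe2l2, the regulator, showed a smaller difference. It lay between 3.31 and 3.75 with a median of 3.48 in STD_Cont, between 3.02 and 3.42 with a median of 3.30 in HFD_Cont, and between 3.27 and 4.11 with a median of 3.44 in HFD_O3. The 8 HFD_Cont arrays were all under the low fat median, but the groups overlapped. The difference between HFD_Cont and STD_Cont was −0.22 ± 0.10 (SE), and a second probe gave −0.50 ± 0.18 (SE).

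The enzymes that NRF2 is known to drive differed among themselves in the size of their difference. Gclc, the catalytic subunit of glutamate-cysteine ligase, the first step of glutathione synthesis, lay between 1.76 and 2.25 with a median of 1.87 in STD_Cont, between 1.26 and 1.86 with a median of 1.66 in HFD_Cont, and between 1.48 and 2.08 with a median of 1.74 in HFD_O3. In HFD_Cont 7 arrays were below all STD_Cont arrays, and the difference was −0.32 ± 0.09 (SE). Gclm, its modifier subunit, was tightly grouped in STD_Cont, between 2.62 and 2.85 with a median of 2.75. It lay between 2.29 and 2.78 with a median of 2.49 in HFD_Cont, and between 2.37 and 3.18 with a median of 2.60 in HFD_O3. Again 7 HFD_Cont arrays lay below all STD_Cont arrays, with a difference of −0.26 ± 0.09 (SE).

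Nqo1, a quinone reductase often read as an NRF2 activity marker, had a mean of 2.05 ± 0.21 in STD_Cont, 2.04 ± 0.24 in HFD_Cont and 1.98 ± 0.28 in HFD_O3 (SD, n = 8 each). Its difference between HFD_Cont and STD_Cont was 0.00, with a 95% interval from −0.25 to 0.25, so a change of the size seen for Hmox1 lies outside that interval. Txnrd1, thioredoxin reductase 1, differed by −0.07 ± 0.06 (SE), and its second probe by 0.09 ± 0.10 (SE). Srxn1, which repairs over-oxidised peroxiredoxins, differed by −0.05 ± 0.17 (SE), with a 95% interval from −0.41 to 0.32. The zinc importer Slc39a14 had a mean of 0.20 ± 0.16 in STD_Cont and 0.00 ± 0.11 in HFD_Cont (SD, n = 8 each), a difference of −0.20 ± 0.08 (SE).

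In this comparison 3 of the 10 genes passed, Mt1, Mt2 and Hmox1, all lower, against 2.91% of all names, or 1.48% lower and 1.43% higher. That count is a description, since the comparison chose the genes. Gclc was just outside the threshold and Mt2 just inside it. The median of the 10 differences was −0.24, and that of all names was 0.002. In fits that left out 1 array, the differences ranged from −1.21 to −0.98 for Mt1, from −0.79 to −0.66 for Hmox1 and from −0.97 to −0.73 for Mt2. Mt2 stayed past the threshold in 10 of the 24 fits; HFD_O3 arrays 1, 3, 4, 5, 7 and 8, HFD_Cont arrays 2 and 3 and STD_Cont arrays 5 and 6 were those that could be left out. HFD_O3 arrays enter through the spread that the 3 groups share. Without HFD_O3 array 7, the count was 5, with Gclc and Gclm added at the same differences, while the names passing rose from 581 to 977, or 4.90%. With slide by array row as a block, Mt1 alone of the 3 remained past the threshold, and 73 names passed.

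**Figure D2:**
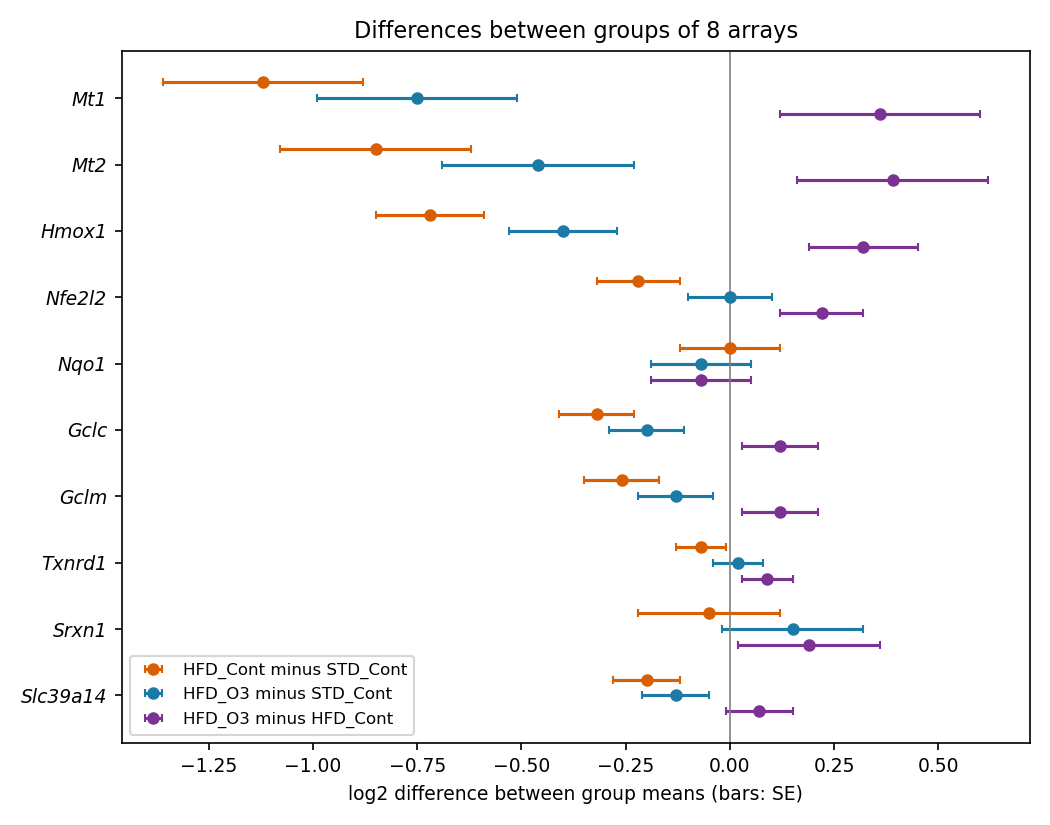
Difference between group means on the log2 scale (x axis, points with SE bars) for each of the 10 genes (y axis) in the 3 comparisons of 8 arrays with 8. Mt1 lies at −1.12, −0.75 and 0.36 for HFD_Cont minus STD_Cont, HFD_O3 minus STD_Cont and HFD_O3 minus HFD_Cont, and Nqo1 lies near 0 in all 3.

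The comparison of the lineages on the high fat diet sets HFD_O3 beside HFD_Cont. It shares its HFD_Cont arrays with the comparison above, in which Mt1 and Hmox1 were known to be lower. That choice of genes favours differences above 0 here, so their direction and the counts by unadjusted p support nothing. None of the 10 genes passed limma's test, against 0% of all 19937 names. At an unadjusted p under 0.05, Hmox1 and Nfe2l2 were 2 of the 10, beside 7.08% of all names (1412). Hmox1 was 0.32 ± 0.13 (SE) higher in HFD_O3, with 7 of 8 HFD_O3 arrays above the HFD_Cont median and 4 above all HFD_Cont arrays (limma adjusted p = 0.651). Nfe2l2 was 0.22 ± 0.10 (SE) higher, with 6 of 8 above that median (limma adjusted p = 0.676).

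Mt2 was 0.39 ± 0.23 (SE) higher in HFD_O3, and all 8 HFD_O3 arrays lay above the HFD_Cont median (limma adjusted p = 0.746). Mt1 was 0.36 ± 0.24 (SE) higher, with 5 of 8 above it (limma adjusted p = 0.762). The 95% intervals ran from −0.13 to 0.85 for Mt1, from −0.09 to 0.87 for Mt2 and from 0.05 to 0.59 for Hmox1. The other members lay between −0.07 for Nqo1 and 0.19 for Srxn1, with limma adjusted p from 0.765 to 0.923. In none of the 10 were the groups fully apart, which 0.0351% of all names were. The median of the 10 differences was 0.16, and that of all names was −0.014.

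The level of HFD_O3 in these genes moved with 1 array. HFD_O3 array 7 was the highest of its group in 9 of the 10 genes, all but Nqo1. In Mt1 it stood at 5.46 with the next HFD_O3 array at 4.77, in Hmox1 at 2.02 with the next at 1.49, and in Nfe2l2 at 4.11 with the next at 3.56. Without it the HFD_O3 minus HFD_Cont difference fell from 0.36 to 0.20 in Mt1, from 0.39 to 0.28 in Mt2, from 0.32 to 0.23 in Hmox1, from 0.22 to 0.13 in Nfe2l2 and from 0.12 to 0.04 in Gclm. In Srxn1, HFD_O3 arrays 1 and 7 stood at 4.45 and 4.53, and the group median was 3.43.

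The third comparison sets the omega-3 lineage on the high fat diet beside the low fat group, which it shares with the first. The choice of genes higher in STD_Cont than in HFD_Cont favours differences below 0 here. None of the 10 genes passed limma's test, against 0.597% of all names. At an unadjusted p under 0.05, 3 of the 10 did (Mt1, Hmox1 and Gclc), beside 11.2% of all names. Mt1 differed by −0.75 ± 0.24 (SE), with 7 of 8 HFD_O3 arrays below the low fat median and 5 below all STD_Cont arrays (limma adjusted p = 0.167). The second Mt1 probe gave −0.08 ± 0.43 (SE) for this comparison. Hmox1 differed by −0.40 ± 0.13 (SE), with 7 of 8 below that median (limma adjusted p = 0.192). Mt2 differed by −0.46 ± 0.23 (SE; limma adjusted p = 0.462) and Gclc by −0.20 ± 0.09 (SE; limma adjusted p = 0.390).

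Without HFD_O3 array 7, Mt1 on its main probe differed by −0.91 ± 0.21 (SE; limma adjusted p = 0.0297) and Hmox1 by −0.50 ± 0.11 (SE; limma adjusted p = 0.0276), and both passed. In that fit the names passing rose from 119 (0.597%) to 343 (1.72%). No other single array moved a member past the threshold in this comparison. Without both HFD_O3 arrays 1 and 7, the Mt1 and Hmox1 values were −0.89 (limma adjusted p = 0.0652) and −0.50 (limma adjusted p = 0.0552), and neither passed. Of all names, 174 (0.873%) passed there. Within slides Mt1 differed by −0.78, −0.83 and −0.37, and Hmox1 by −0.59, −0.70 and 0.18. Slide 3 was the one that held HFD_O3 array 7. Nfe2l2 was level with the low fat group at 0.00 ± 0.10 (SE), with a 95% interval from −0.20 to 0.20. Txnrd1 at 0.02 ± 0.06 and Srxn1 at 0.15 ± 0.17 (SE) were the others not below 0.

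Mt1 and Mt2 varied together from mouse to mouse. After subtraction of group means, their levels over 24 arrays had a Pearson r of 0.79 (permutation p = 2e-05, adjusted over 9 relations 0.00018, two-sided) and a Spearman rho of 0.76 (permutation p = 6e-05, adjusted 0.00054). Without HFD_O3 array 7 and STD_Cont array 7, the arrays farthest out in Mt1, r was 0.69 (permutation p = 0.00102, n = 22). By group, r was 0.90 in STD_Cont (exact permutation p = 0.00288), 0.87 in HFD_Cont (exact permutation p = 0.00546) and 0.67 in HFD_O3 (exact permutation p = 0.0945), with 8 arrays each. On the 3 slides r was 0.56, 0.83 and 0.97. The group values were not tested against each other.

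**Figure D3:**
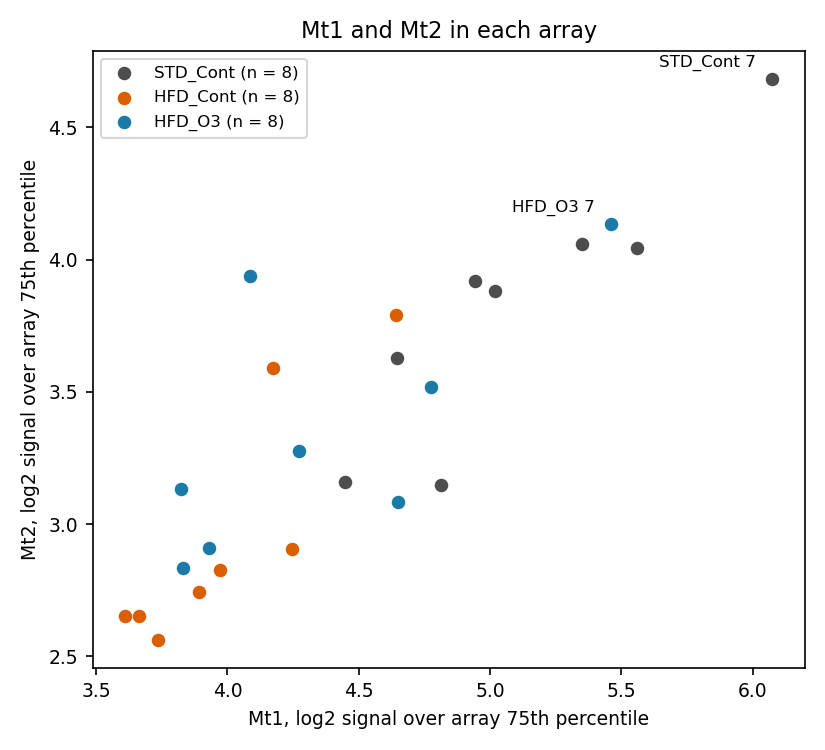
Mt2 level (y axis) against Mt1 level (x axis) in each of 24 arrays, both as log2 of the signal over the array's 75th percentile, coloured by group. HFD_Cont arrays lie mostly at the lower left and STD_Cont arrays mostly at the upper right, and HFD_O3 array 7 lies among the STD_Cont arrays. Some arrays lie off the diagonal, such as HFD_O3 array 1 (Mt1 4.09, Mt2 3.94) and HFD_O3 array 2 (Mt1 4.65, Mt2 3.09).

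The other members followed Mt1 less closely. Hmox1 had an r of 0.54 with Mt1 (permutation p = 0.0169, adjusted 0.0380) and a rho of 0.52 (permutation p = 0.0165, adjusted 0.056), and r was 0.43 (permutation p = 0.0522) without the same pair of arrays. Within slides the Hmox1 r was 0.62, 0.66 and 0.69. Gclc went from 0.60 (permutation p = 0.00319, adjusted 0.0144) to 0.32 (permutation p = 0.148) without that pair. Nfe2l2 went from 0.61 (permutation p = 0.00615, adjusted 0.0184) to 0.34 (permutation p = 0.124). That pair was picked as farthest out in Mt1, so leaving it out also narrows the range of Mt1. Over all 24 arrays rho was 0.50 for Gclc (permutation p = 0.0187, adjusted 0.056) and 0.43 for Nfe2l2 (permutation p = 0.0413, adjusted 0.0929). For Nqo1 r was −0.10 (permutation p = 0.678), and for the remaining 4 genes it lay between 0.25 and 0.44, with adjusted permutation p from 0.0801 to 0.328.

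Among 13602 names with a plain symbol, the 5 whose levels followed Mt1 most closely over the 24 arrays, after subtraction of group means, were Cdkn1a (r = 0.87), the gene of a cell cycle inhibitor, Atp6v1h (0.82), a subunit of the vacuolar proton pump, Mocos (0.81), Pex13 (0.81), a peroxisomal import protein, and Mettl6 (0.80). Mt2 ranked 8 in that order. For Hmox1 they were Cyp4b1 (0.86), Tmem140 (0.85), Glul (0.84), the glutamine synthetase gene, Zfand5 (0.83) and Trim63 (0.81), which encodes the muscle ubiquitin ligase MuRF1. These likenesses are descriptions over arrays that share scaling and slides.

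Genes with roles next to the set were taken from lists written with earlier results of these data in view. Of 130 such genes measured, 15 passed between HFD_Cont and STD_Cont, 2 higher and 13 lower, beside 2.91% of all names, or 1.43% higher and 1.48% lower. Without STD_Cont array 1, 6 of them passed, and the names passing fell from 581 to 182. In the zinc and metal response list, 1 of 20 measured genes was higher and 1 lower, with a median difference of 0.05 beside 0.00 for all names. Slc30a1 encodes ZnT1, the exporter of zinc from the cell and, like the metallothioneins, a known MTF1 target. Its level was 0.45 to 0.62 with a median of 0.55 in STD_Cont, 0.01 to 0.36 with a median of 0.18 in HFD_Cont, and 0.04 to 0.60 with a median of 0.35 in HFD_O3. HFD_Cont and STD_Cont did not overlap, which held for 1.14% of all names, and the difference was −0.35 ± 0.06 (SE; limma adjusted p = 0.0103).

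Slc39a10 encodes ZIP10, a zinc importer that MTF1 is known to repress. Its level was −2.36 to −1.98 with a median of −2.14 in STD_Cont, −1.87 to −1.41 with a median of −1.76 in HFD_Cont, and −1.88 to −1.51 with a median of −1.69 in HFD_O3. Both high fat groups lay wholly above the low fat group. The difference was 0.42 ± 0.07 (SE; limma adjusted p = 0.00714) for HFD_Cont and 0.43 ± 0.07 (SE; limma adjusted p = 0.00635) for HFD_O3, against STD_Cont. No overlap between HFD_O3 and STD_Cont was seen for 0.150% of all names. Slc39a10 was the one related gene of 130 to pass in the third comparison, in which 0.406% of all names passed as higher. Without HFD_O3 array 7, 14 of the 130 passed there, while all names passing rose from 119 to 343, or 1.72%. Without that array, 20 of the 130 passed between HFD_Cont and STD_Cont, beside 977 of all names. Slc39a10 passed in 24 of 24 fits without 1 array in both comparisons, and Slc30a1 did so in the first.

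Slc39a10 is dim, and its size moved with the background correction: it was 0.22 in HFD_Cont and 0.24 in HFD_O3 after normexp correction, still past the threshold. A second Slc39a10 probe, well above background on 2 STD_Cont, 7 HFD_Cont and 4 HFD_O3 arrays, met the filter only through HFD_Cont, so its values support nothing here. Slc30a1 differed by −0.20 ± 0.06 (SE) between HFD_O3 and STD_Cont (limma adjusted p = 0.184), and by −0.24 (limma adjusted p = 0.0479) without HFD_O3 array 7. Within slides Slc30a1 was −0.47, −0.26 and −0.33 and Slc39a10 was 0.47, 0.42 and 0.42 in HFD_Cont against STD_Cont.

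**Figure D4:**
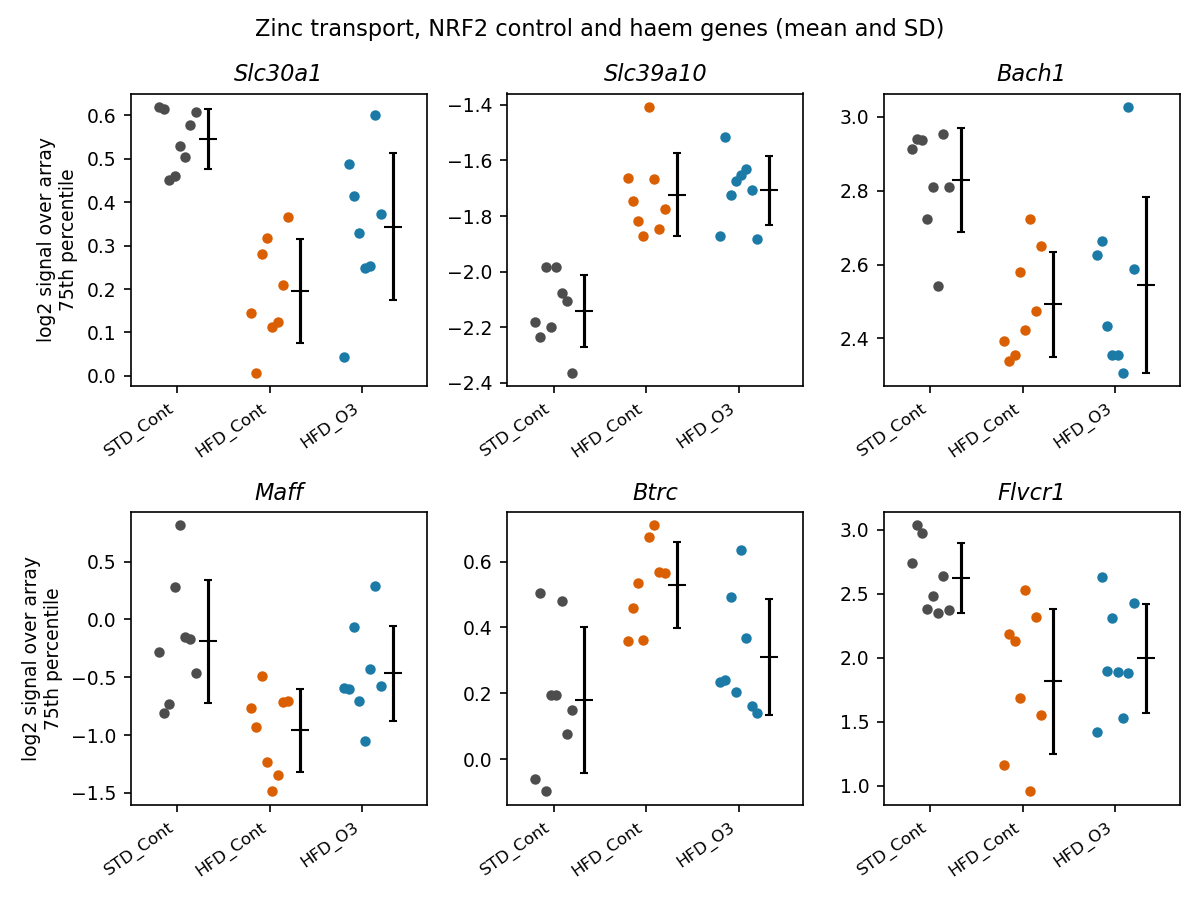
Level of 6 genes of zinc transport, NRF2 control and haem export in 24 arrays (log2 of the signal over the array's 75th percentile, y axis, scaled per gene) by group (x axis), with points for arrays and bars for the mean and SD of 8. Slc30a1 does not overlap between STD_Cont and HFD_Cont, and Slc39a10 in both high fat groups lies above STD_Cont.

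Among 11 measured genes that control NRF2 or its sites, 1 was higher and 2 lower in HFD_Cont than in STD_Cont, with a list median of −0.04. Of all names, 1.43% were higher and 1.48% lower. Bach1, the repressor of Hmox1, was lower by −0.34 ± 0.09 (SE; limma adjusted p = 0.0399), from 2.83 ± 0.14 to 2.49 ± 0.14 (SD, n = 8 each). Maff, a small MAF partner of both NRF2 and BACH1, was lower by −0.77 ± 0.21 (SE; limma adjusted p = 0.0460). Btrc, a substrate adaptor that can mark NRF2 for degradation, was higher by 0.35 ± 0.09 (SE; limma adjusted p = 0.0339), but its second probe gave 0.07 ± 0.07 (SE). Of fits without 1 array, Bach1 passed in 11 of 24, Maff in 8 and Btrc in 14, with the highest limma adjusted p at 0.0863 for Bach1 and 0.0826 for Btrc, both without STD_Cont array 1, and at 0.1 for Maff without HFD_Cont array 5. All 3 also lost their call after normexp correction, with median scaling, with no filter and with slide by array row as a block, with limma adjusted p up to 0.321. Without HFD_O3 array 7, Bach1 also passed between HFD_O3 and STD_Cont, at −0.35 (limma adjusted p = 0.0204), where it had been −0.28 ± 0.09 (SE; limma adjusted p = 0.167).

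Beside 1.48% of all names lower, 1 of 19 further NRF2 target enzymes measured passed and was lower. This was Sqstm1, the autophagy receptor p62, which also binds the NRF2 inhibitor KEAP1, at −0.25 ± 0.06 (SE; limma adjusted p = 0.0330), with no overlap between the groups. It passed in 16 of 24 fits without 1 array, with the highest limma adjusted p at 0.0707 without STD_Cont array 1, and not with slide by array row as a block (limma adjusted p = 0.177). The Sqstm1 call also ended with median scaling (limma adjusted p = 0.164), with no filter (limma adjusted p = 0.0961) and with a replicate block (limma adjusted p = 0.0583). The median over these 19 enzymes was 0.00, the same as for all names. None of 31 other glutathione, thioredoxin and antioxidant enzyme genes passed in limma's test, and 4 had an unadjusted p under 0.05, which 16.6% of all names had. The smallest p-values there belonged to Sesn1 at −0.72 ± 0.23 (SE; limma adjusted p = 0.0899) and Txnip at −0.33 ± 0.11 (SE; limma adjusted p = 0.101).

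Of 24 haem and iron genes measured, 1 was lower, beside 1.48% of all names. Flvcr1, which encodes a haem exporter, had a mean of 2.62 ± 0.27 in STD_Cont, 1.82 ± 0.57 in HFD_Cont and 2.0 ± 0.43 in HFD_O3 (SD, n = 8 each). HFD_Cont differed from STD_Cont by −0.81 ± 0.21 (SE; limma adjusted p = 0.0371), and the call held in 15 of 24 fits without 1 array, with the highest limma adjusted p at 0.0783 without STD_Cont array 1. The call ended with median scaling (limma adjusted p = 0.0569) and with no filter (limma adjusted p = 0.0919).

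Lists of other targets of known inducers of the metallothioneins were set beside these values. Whether those inducers had a part in the metallothionein differences was not tested. The glucocorticoid list also holds Nr3c1, the gene of the glucocorticoid receptor. The interleukin-6 list also holds the genes of interleukin-6 and its receptor. Of 13 glucocorticoid-induced genes measured, 6 were lower and none higher, beside 1.48% of all names lower, with a median of −0.49 beside 0.00 for all names. This list was drawn with that result in view. They included Zbtb16, a zinc finger regulator, at −0.77 ± 0.14 (SE; limma adjusted p = 0.0103), Cebpb, a transcription factor, at −0.65 ± 0.13 (SE; limma adjusted p = 0.0145), Klf9 at −0.49 ± 0.10 (SE; limma adjusted p = 0.0155), and Fkbp5, a co-chaperone of the glucocorticoid receptor, at −1.41 ± 0.32 (SE; limma adjusted p = 0.0215). Fkbp5 alone of these 4 lost its call in fits without 1 array, in 1 of 24, without STD_Cont array 1, with a limma adjusted p of 0.0539. With slide by array row as a block all 4 lost it, at limma adjusted p = 0.092 for Zbtb16, 0.074 for Cebpb, 0.0859 for Klf9 and 0.105 for Fkbp5, where 73 of all names passed. Of 12 interleukin-6 and acute phase genes, 2 were lower: Lcn2, lipocalin 2, at −0.62 ± 0.14 (SE; limma adjusted p = 0.0232) and Il6ra, the interleukin-6 receptor, at −1.0 ± 0.25 (SE; limma adjusted p = 0.0307). Il6ra passed in 16 of 24 fits without 1 array, with the highest limma adjusted p at 0.0743. A second Il6ra probe, well above background on 6 STD_Cont, 4 HFD_Cont and 4 HFD_O3 arrays, gave −0.22 ± 0.56 (SE), and with the mean of both probes, −0.61, the call ended (limma adjusted p = 0.413). After normexp correction Lcn2 was −0.31 and no longer passed (limma adjusted p = 0.0595).

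None of the 130 related genes passed limma's test between HFD_O3 and HFD_Cont, and 15 had an unadjusted p under 0.05, beside 7.08% of all names (1412). The median difference of the 13 glucocorticoid-induced genes was 0.18 there and −0.31 between HFD_O3 and STD_Cont, beside −0.01 and −0.02 for all names. The list was drawn with its result between HFD_Cont and STD_Cont in view. Both comparisons share a group with that one, so these signs support nothing.

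Markers of other cells were set beside these values. White adipocyte markers, 10 of 10 measured, summed to 150 to 366 times the array's 75th percentile in STD_Cont, 170 to 546 in HFD_Cont and 151 to 380 in HFD_O3, and none passed in any comparison. Their median difference was 0.48 for HFD_Cont minus STD_Cont, −1.04 for HFD_O3 minus HFD_Cont and −0.15 for HFD_O3 minus STD_Cont. With the mean of these markers as a covariate, HFD_Cont minus STD_Cont was −1.07 ± 0.24 for Mt1, −0.82 ± 0.24 for Mt2 and −0.75 ± 0.14 for Hmox1 (SE). Mt2 was no longer past the threshold in that fit, in which 425 of all names, or 2.13%, passed. Without the 6 arrays highest in them, HFD_Cont minus STD_Cont was −0.99 for Mt1, −0.80 for Mt2 and −0.73 for Hmox1, and no name passed limma's test with 18 arrays left, while 1950 had an unadjusted p under 0.05. These 6 arrays were chosen after the data were seen: HFD_Cont 2, 4 and 5, HFD_O3 4 and 5, and STD_Cont 1. Macrophage markers, 11 of 12 measured, with Fcgr1 not measured, summed to 22.8 to 34.9, 19.1 to 33.9 and 17.8 to 44.3, and none passed. Erythroid markers, 7 of 10 measured, summed to 715 to 1030, 612 to 1080 and 616 to 985. The part of macrophage and blood cells in the metallothionein and Hmox1 differences was not tested.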

How the data were processed

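The 24 samples are 1-colour Agilent arrays of 200 ng total RNA each, 1 array per mouse and 8 per group. The authors' deposited scanner files hold processed intensity, background-subtracted by Agilent Feature Extraction 10.10.1.1 per the file headers. The deposited value table holds log2 values of 30124 probes, made with limma per the submitters' processing notes. Each of its 24 columns matched its own array most closely. Its scale is log2, and its centring is not given in the sources used here.

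Log2 intensities were scaled to each array's 75th percentile. Probes well above background on at least 6 arrays of a group were kept (29245), and a gene's brightest probe by mean represented it. Groups were compared in limma 3.58.1 (R 4.3.3) with Benjamini-Hochberg adjustment over 19937 names. Relations across arrays used 100000 permutations, or exact ones within groups (scipy 1.17.1). The pipeline was tested on simulated data. Each group had 8 mice per the series' design text; the sample labels give a replicate number only, so p-values measure the spread between these samples. The number of arrays limits the precision. Members and related lists were chosen with earlier results of these data known. Named were all members, up to 4 passing genes per list by p (up to 2 where none passed), and the 5 nearest in level to Mt1 and Hmox1. Cell type markers of muscle fibres, adipocytes, macrophages, endothelium, fibroblasts, smooth muscle and erythroid cells were summed. Endothelial markers had 1 of 9 higher in HFD_Cont than in STD_Cont, and none of the 8 fibroblast and 5 smooth muscle markers passed in any comparison. Alternatives covered background correction, scaling, filters, probes, slides, replicate numbers and left-out arrays.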

Additional observations from a re-analysis of the deposited data

Results flagged for a closer look

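In 3 of the 30 combinations of gene and group, 1 array lay far from the rest by Dixon's gap test, which flags about 1 in 20 groups by chance. All were the same array, HFD_O3 array 7, as the highest of its group. Nfe2l2 stood at 4.11 there with the next HFD_O3 array at 3.56. Gclm stood at 3.18 with the next at 2.65, and Txnrd1 at 4.87 with the next at 4.61.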

How the results depend on the processing

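No result changed direction past the threshold under the alternatives run. With 10 genes, the count passing between HFD_Cont and STD_Cont (3) was 1 with slide by array row as a block, 0 within each single slide, 5 with the 2 groups compared alone and 5 without HFD_O3 arrays 1 and 7. The member count was 0 without the 6 arrays highest in adipocyte markers, and 2 to 5 without 1 array, with 5 without HFD_O3 array 7. The names passing moved the same way, from 581 (2.91%) to 73 (0.366%) with slide by array row as a block. They were 0 within each slide and without the 6 arrays. They rose to 1166 (5.85%) with the 2 groups alone, 1238 (6.21%) without HFD_O3 arrays 1 and 7, and 977 (4.90%) without array 7. Not every alternative is listed here. Averaging the probes of a gene ended the Mt1 call, and the adipocyte score as a covariate ended the Mt2 call. Among related genes the count there (15) was 7 with median scaling, 5 with no filter, 4 with slide by array row as a block, 0 within each slide and 0 without the 6 arrays, and 6 (without STD_Cont array 1) to 20 (without HFD_O3 array 7). Between HFD_O3 and HFD_Cont both counts were 0 throughout. Between HFD_O3 and STD_Cont the member count (0) was 0 to 2 without 1 array. The related count (1) was 2 after normexp correction, with the mean of probes and with slide by array row as a block, 3 with probes well above background on every array or with the adipocyte score as a covariate, and 4 in the deposited table. It was 0 within each slide and without the 6 arrays, 6 without HFD_O3 arrays 1 and 7, and 1 to 14 without 1 array, with 14 without HFD_O3 array 7. In this comparison the names passing rose from 119 to 174 without arrays 1 and 7, and to 343 without array 7. Same-numbered samples deviated together in 2 of 8 pairs in each comparison, with correlations up to 0.365. Differently numbered pairs were not looked at, so these values cannot settle whether the numbers pair the samples. With a replicate block, 3 members passed between HFD_Cont and STD_Cont (Mt1 −1.12), and the related count between HFD_O3 and STD_Cont was 2. The Mt1 and Mt2 relation was 0.56 on slide 1 alone (permutation p = 0.151) and 0.75 to 0.87 without 1 array. Where counts changed the cause was not tested. Single slides hold fewer arrays. Leaving out the adipose-rich arrays of earlier work was not run, since their score is not given in the sources used here, and the 6 arrays replaced it after the data were seen. The Slc39a10 probe is dim, and its difference moved from 0.42 to 0.22 with normexp correction.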

Other observations

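Nqo1 split the arrays in a way that did not follow the groups, a pattern noticed after its values were seen. In 6 of 24 arrays its level lay between 1.59 and 1.72, and in the other 18 between 1.93 and 2.30. The gap between these sets was 29.8% of the whole range, and in the other members the widest such gap, with at least 3 arrays on each side, was 5.7% to 15.5%. The 6 arrays comprised 1 of STD_Cont, 2 of HFD_Cont and 3 of HFD_O3. They lay on all 3 slides, and 5 of the 6 were in array row 1, as were 7 of the 18 others. HFD_O3 array 7, the highest of its group in the other 9 genes, was among the 6, at 1.72.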
